A study of Arabidopsis thaliana with 7 samples.

Results

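The genes described here encode hydrophilic proteins that Arabidopsis thaliana makes in the cold. They were COR15A (AT2G42540), COR15B (AT2G42530), COR47 (AT1G20440), LTI30 (AT3G50970), RD29A (also called COR78 or LTI78, AT5G52310), KIN1 (AT5G15960) and KIN2 (AT5G15970). These 7 genes were read by 6 of the 22746 probe sets on each array. The rule that picks them names genes and sets no threshold on a signal, but the gene set was proposed with earlier results of these data known. The annotation used here gave a single gene for the probe sets of COR15A (263497_at), COR15B (263495_at), COR47 (259570_at) and LTI30 (252102_at). It listed both KIN genes for 246481_s_at, so the signals of KIN1 and KIN2 cannot be told apart. It gave no gene for 248337_at, which stands for RD29A by the choice of members.

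Cold induction of these genes runs through the CBF (DREB1) transcription factors, which bind the C-repeat element in their promoters. Several of them also respond to drought, salt and the hormone abscisic acid. The COR15 proteins enter the chloroplast and protect its membranes during freezing, COR47 and LTI30 are dehydrins that shield membranes and proteins when cells lose water, and RD29A and the KIN proteins are further hydrophilic proteins of the same response.

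Total RNA of whole seedlings was measured on 7 one-colour arrays. The seedlings were 7 days old and had grown at 21 °C with 16 h of light and 8 h of dark, so no group had a cold treatment. The groups were soc1-101D (3 arrays, Col plants that carry a gain-of-function allele of the floral promoter gene SOC1 and flower early), soc1-2 (1 array, a late-flowering knock-out of SOC1 in the Col background) and the wild type Col (3 arrays). Each of experiments 1, 2 and 3 held 1 soc1-101D and 1 Col array, and the soc1-2 array belonged to experiment 3. Each mutant is a single allele, and the labels do not say how many seedlings went into an array or whether the experiments were separate plantings, and the p-values therefore speak only of the spread among these arrays, part of which could be technical. The signal of SOC1 itself was not analysed here, so each genotype is taken from its label.

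The deposited value is 1 intensity per probe set and array. Here each array was scaled to a common median of 193, and the scaled value is called the signal. Differences are on the scale of log2(signal + 19.3), which understates changes of dim genes. A fold between groups is likewise a ratio of signal + 19.3, and the span of a group over its arrays is a ratio of plain signals. A linear model (limma) took genotype and experiment as terms over the 13648 brighter probe sets, and an adjusted p under 0.05 (Benjamini-Hochberg over all 13648) was called. For fitted differences, ± is the limma SE. All 6 cold-induced probe sets were bright enough to be tested by their mean over all arrays. A probe set that passed could still be dim on single arrays. Summed markers of the seedling organs overlapped between each mutant and Col. The shoot markers did not overlap between soc1-101D and the single soc1-2 array, which came from experiment 3, where the Col sum was also at its lowest. The summed signal of 3 shoot and photosynthesis markers (RCA, LHCB4.1 and LHCB4.2) was 68621 to 90198 in soc1-101D, 56478 in soc1-2 and 56138 to 95202 in Col. The summed signal of 3 root markers (PYK10, EXPA7 and EXPA18) was 13711 to 22538 in soc1-101D, 20105 in soc1-2 and 16810 to 22954 in Col. PYK10 made up nearly all of the root sum on each array (16352 of 16810 in Col of experiment 1), so that sum follows a single gene. These 3 root markers of 4 listed, and the 3 shoot markers of 6 listed, were those with a named probe set. In the fit of soc1-101D minus Col these markers had log2 differences of 0.090 (RCA), 0.051 (LHCB4.1), 0.16 (LHCB4.2), −0.12 (PYK10), 0.065 (EXPA7) and −0.14 (EXPA18), none of them called. In RNA of whole seedlings, fewer cells of a type and less RNA per cell cannot be told apart.

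The first comparison set seedlings with overactive SOC1 against the wild type. In soc1-101D the KIN1/KIN2 and RD29A probe sets fell, by 4.25-fold and 5.61-fold against Col. The other 4 had negative fitted differences that did not pass the test. Lower calls made up 0.271% of all tested probe sets in this comparison and 2 of the 6 here. The median fitted log2 difference was −1.65 over the 6 and −0.024 over all tested probe sets.

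**Figure D1:**
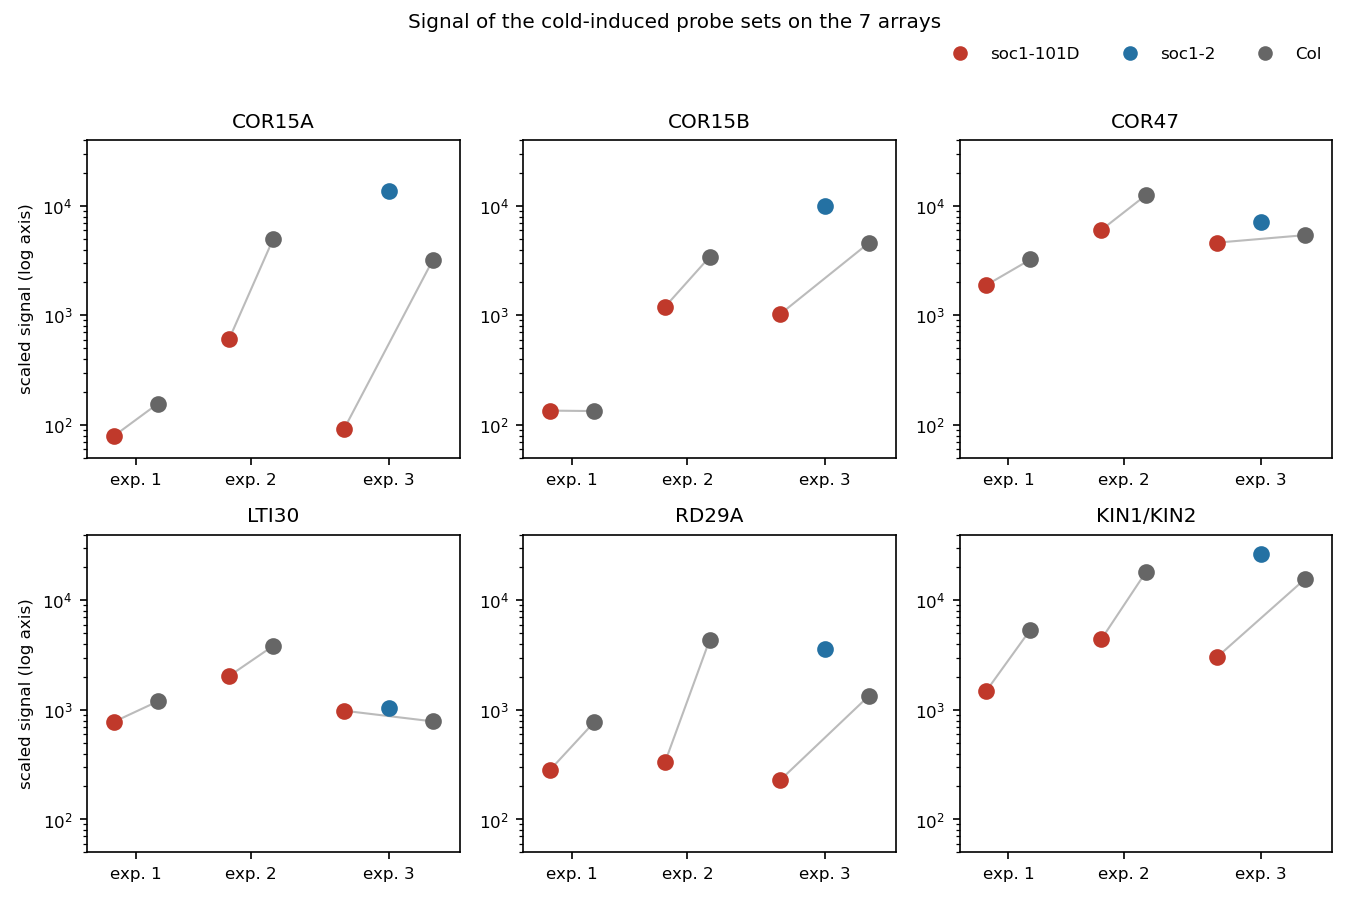
Scaled signal (log axis) of the 6 probe sets on the 7 arrays, grouped by experiment, with lines joining soc1-101D to Col of the same experiment. All soc1-101D points of RD29A and KIN1/KIN2 lie below all Col points, and soc1-2 is the highest point for COR15A, COR15B and KIN1/KIN2.

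The KIN genes encode small alanine-rich proteins that have been likened to a fish antifreeze protein. KIN1/KIN2 read 1485, 4437 and 3018 in soc1-101D of experiments 1, 2 and 3, against 5424, 18094 and 15797 in Col. Every soc1-101D array lay below every Col array, and the fall was of similar size in each experiment. The log2 differences were −1.86, −2.02 and −2.38 (SD 0.27, n = 3 pairs), and the fitted difference was −2.09 ± 0.16 (limma adjusted p = 0.00592). By unadjusted p this probe set ranked 4 among the 13648 tested.

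RD29A, whose promoter is a standard reporter of cold and drought signalling, read 283, 337 and 229.9 in soc1-101D of experiments 1, 2 and 3, against 775, 4337 and 1352 in Col. The soc1-101D arrays stayed within 1.47-fold of each other, whereas the Col arrays spanned 5.60-fold, and the groups did not overlap. The log2 differences were −1.40, −3.61 and −2.46 (SD 1.11, n = 3 pairs), with a fitted difference of −2.49 ± 0.36 (limma adjusted p = 0.0345). Both RD29A and KIN1/KIN2 were at least 2-fold lower in each experiment, as were 0.154% of all tested probe sets. Groups that did not overlap, with soc1-101D below Col, were found for 2.42% of tested probe sets and for these 2 of the 6.

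COR15A had the lowest fitted difference of all 13648 tested probe sets and was not called. It read 79.0, 604 and 92.7 in soc1-101D of experiments 1, 2 and 3, against 157, 5025 and 3223 in Col. The soc1-101D arrays were lower in all 3 experiments, by 1.79-fold, 8.09-fold and 29.0-fold after the 19.3 was added to each signal. The groups overlapped, because Col of experiment 1 lay between soc1-101D arrays. The fitted log2 difference was −2.90 ± 0.61 (limma 95% interval −4.32 to −1.49, adjusted p = 0.115), and the 3 pairs had an SD of 2.01.

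COR15B, the neighbouring copy of COR15A, read 135, 1204 and 1033 in soc1-101D of experiments 1, 2 and 3, against 134, 3417 and 4620 in Col. Mutant and wild type were level in experiment 1 and soc1-101D was lower in the other two. The fitted log2 difference was −1.21 ± 0.36 (limma 95% interval −2.03 to −0.38, adjusted p = 0.251). Both COR15 genes were dim in experiment 1, and the part of this dimness in the missed calls was not tested. That experiment also held the smallest difference for both genes, so a fit without it is bound to be wider. Without experiment 1, COR15A differed by −3.94 (limma adjusted p = 0.0232) and COR15B by −1.81 (limma adjusted p = 0.0407). That fit still holds soc1-101D of experiment 3, where COR15A was also dim (92.7). COR15A was called in 3 of 11 alternatives and COR15B in 1 of 11. Over all alternatives the limma adjusted p ran from 0.0232 to 1.00 for COR15A and from 0.0407 to 1.00 for COR15B.

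The dehydrins showed smaller differences. COR47 read 1889, 6044 and 4619 in soc1-101D of experiments 1, 2 and 3, against 3246, 12516 and 5416 in Col. It was lower in each experiment, but the groups overlapped. The fitted log2 difference was −0.68 ± 0.19 (limma 95% interval −1.12 to −0.25, adjusted p = 0.21). LTI30 read 777, 2037 and 983 in soc1-101D, against 1200 (experiment 1), 3852 (experiment 2) and 786 (experiment 3) in Col. It was lower in experiments 1 and 2 and higher in experiment 3. The fitted log2 difference was −0.40 ± 0.24, with a limma 95% interval of −0.95 to 0.14 and an adjusted p of 0.601.

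**Figure D2:**
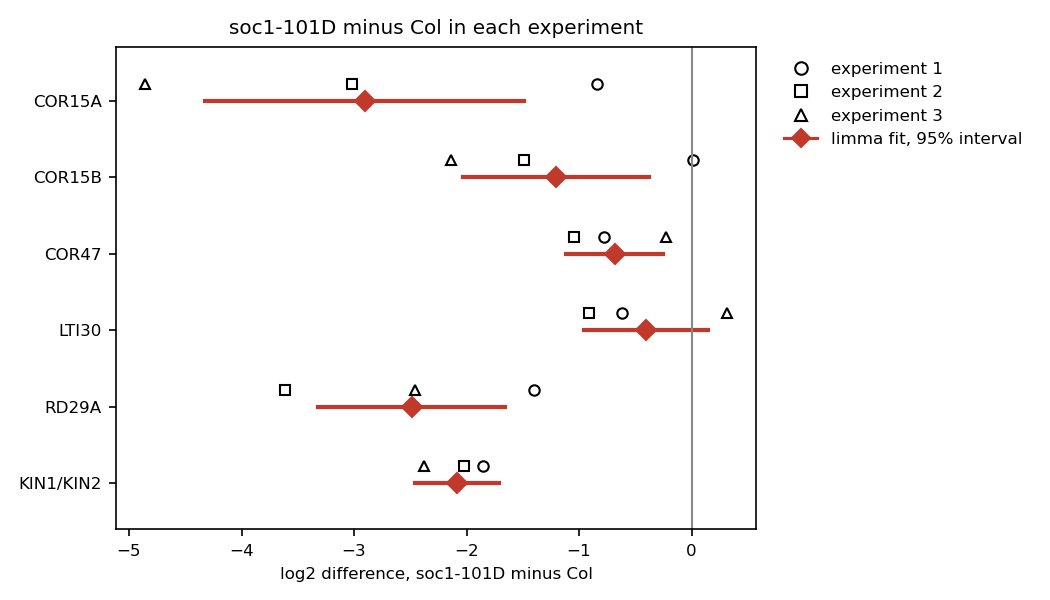
Log2 difference of soc1-101D minus Col for the 6 probe sets, with 1 open symbol per experiment and, below it, the limma fit with its 95% interval. The 3 experiments lie close together for KIN1/KIN2 (SD 0.27) and far apart for COR15A (SD 2.01).

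Of the 6 probe sets, 4 (COR15A, COR47, RD29A and KIN1/KIN2) were lower in each of the 3 experiments, as were 18.3% of all tested probe sets. The RD29A call held in 5 of 11 alternatives and the KIN1/KIN2 call in 8 of 11. RD29A was lost without further scaling (limma adjusted p = 0.0622), with quantile normalization (limma adjusted p = 0.105) and with a smaller pseudocount (limma adjusted p = 0.0607). With no filter on dim probe sets the adjusted p of KIN1/KIN2 was 0.456 and that of RD29A 0.482 (limma), and without the experiment block neither passed (limma adjusted p = 1.00 for both). Over all alternatives the limma adjusted p ran from 0.000111 to 1.00 for KIN1/KIN2 and from 0.00463 to 1.00 for RD29A.

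**Figure D3:**
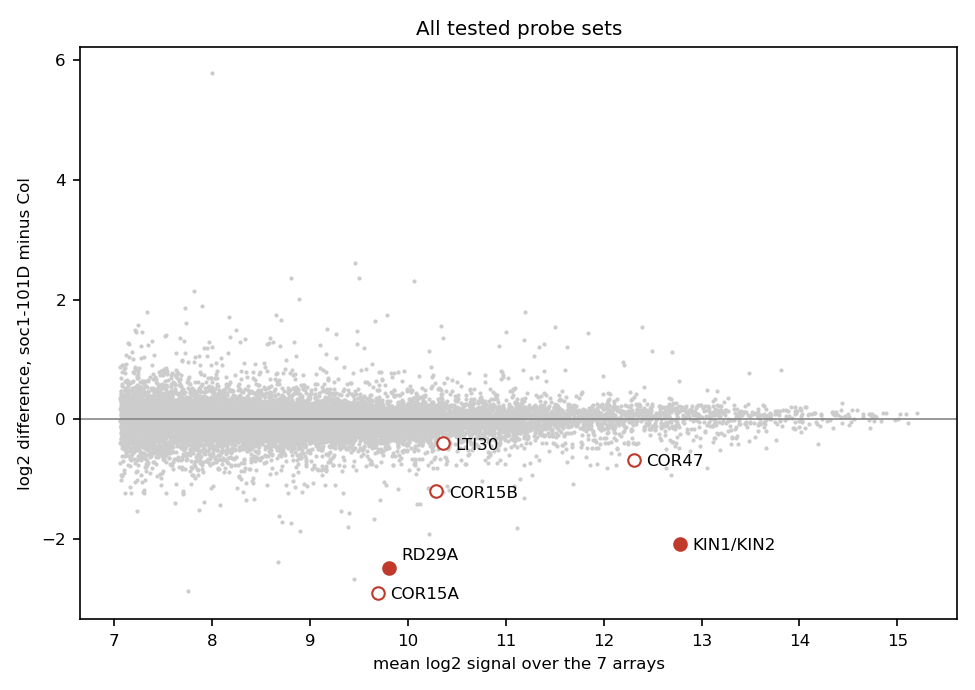
Fitted log2 difference of soc1-101D minus Col against the mean log2 signal over the 7 arrays for all 13648 tested probe sets (grey) and the 6 cold-induced ones (red, filled where called). COR15A is the lowest point, and KIN1/KIN2 lies at −2.09 among bright probe sets.

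The second comparison set seedlings without working SOC1 against the wild type. On the single soc1-2 array all 6 probe sets read higher than on the Col array of experiment 3, as did 46.4% of all tested probe sets. COR15A, COR15B and RD29A were at least 2-fold higher, a size that 0.674% of tested probe sets reached. There is 1 soc1-2 array, so these differences have no replicate check.

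COR15A read 13552 in soc1-2 and 3223 in Col of experiment 3, a 4.19-fold difference. COR15B read 9961 in soc1-2 and 4620 in Col, a 2.15-fold difference. KIN1/KIN2 read 26610 in soc1-2 and 15797 in Col, a 1.68-fold difference. For these 3 probe sets the soc1-2 array was above all 6 other arrays, as it was for 11.1% of tested probe sets. RD29A read 3592 in soc1-2 and 1352 in Col of experiment 3, a 2.63-fold difference, but Col of experiment 2 read higher, at 4337. COR47 read 7111 in soc1-2 and 5416 in Col (1.31-fold), and LTI30 1033 in soc1-2 and 786 in Col (1.31-fold). For COR47 and LTI30 the soc1-2 signal fell between the lowest and the highest Col array.

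In the fit, which takes its spread from the other pairs and assumes that the lone array varies like them, no tested probe set passed for soc1-2 minus Col (0% called by limma, and 387 probe sets at an unadjusted p under 0.05). The fitted log2 differences were 3.04 ± 0.97 for COR15A, 1.57 ± 0.56 for COR15B, 1.38 ± 0.56 for RD29A and 0.90 ± 0.25 for KIN1/KIN2. These 4 had an unadjusted p under 0.05, where 1.61% of tested probe sets were higher at that level. COR47 and LTI30 were at 0.16 ± 0.29 and 0.027 ± 0.37. The fit also uses soc1-101D of experiment 3, so its values differ from the plain log2 differences from Col of experiment 3, which were 2.07 (COR15A), 1.11 (COR15B), 1.40 (RD29A), 0.75 (KIN1/KIN2), 0.39 (COR47) and 0.39 (LTI30).

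The series sets the gain-of-function mutant against soc1-2, and the third comparison took their difference directly. KIN1/KIN2 fell in soc1-101D against soc1-2, with a fitted log2 difference of −2.99 ± 0.25 (limma adjusted p = 0.0171). It was 1 of 4 probe sets called lower, which were 0.0293% of those tested. Within experiment 3 it read 3018 in soc1-101D and 26610 in soc1-2, an 8.77-fold difference. Within experiment 3 the summed shoot and photosynthesis markers read 68621 in soc1-101D, 56478 in soc1-2 and 56138 in Col. Their fitted log2 differences in soc1-101D minus soc1-2 were 0.24 (RCA), 0.056 (LHCB4.1) and 0.33 (LHCB4.2), none called. The part of these markers in the differences of the cold-induced probe sets was not tested.

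COR15A showed the lowest fitted difference of all tested probe sets in this comparison as well, at −5.95 ± 0.97 (limma adjusted p = 0.129), and read 92.7 in soc1-101D and 13552 in soc1-2 of experiment 3. RD29A was the next lowest at −3.87 ± 0.56 (limma adjusted p = 0.095), and read 229.9 in soc1-101D and 3592 in soc1-2. COR15B was at −2.78 ± 0.56 (limma adjusted p = 0.258). Within experiment 3, soc1-101D was at least 2-fold lower than soc1-2 for these 3 and KIN1/KIN2, and for 1.17% of all tested probe sets. COR47 was at −0.85 ± 0.29 and LTI30 at −0.43 ± 0.37, with limma 95% intervals of −1.53 to −0.16 and −1.30 to 0.44. The KIN1/KIN2 call held in 6 of 10 alternatives. It was lost with quantile normalization (limma adjusted p = 0.123), with either weaker filter on dim probe sets and without the experiment block, over a range of 0.000439 to 1.00 for all alternatives. With experiment 1 or experiment 2 left out, more of these probe sets were called, but so were more of all tested probe sets.

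**Figure D4:**
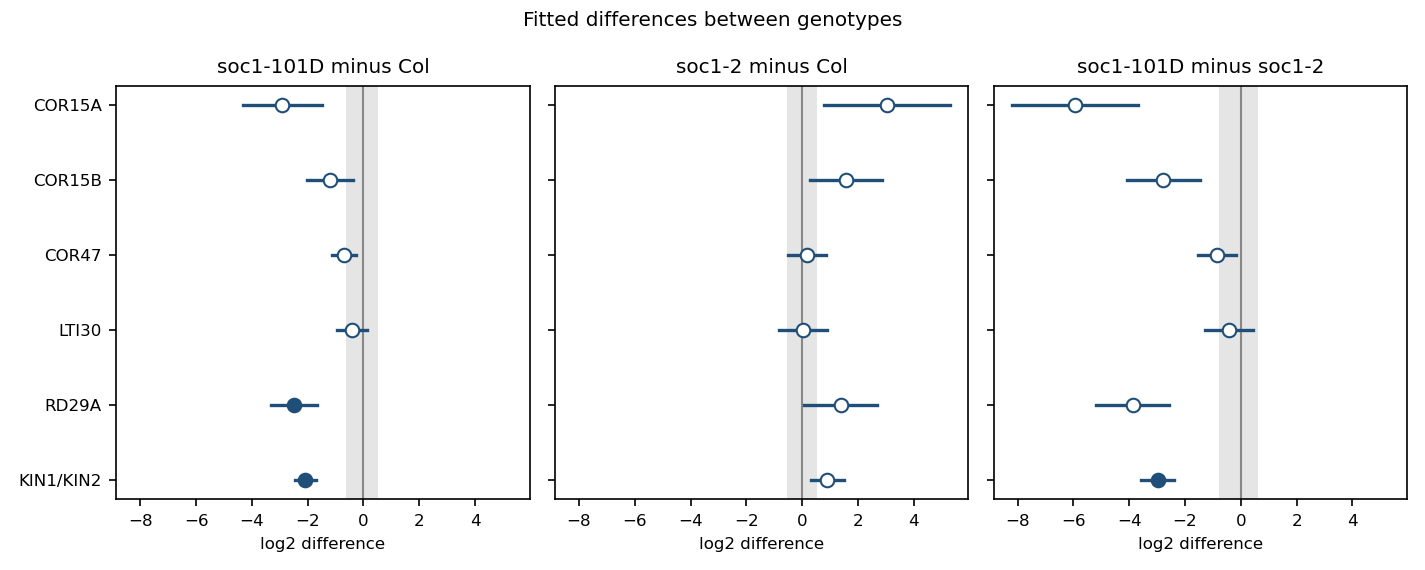
Fitted log2 differences with limma 95% intervals for the 6 probe sets in 3 comparisons (filled where the adjusted p was under 0.05), over a grey band that holds the central 95% of all tested probe sets. COR15A, COR15B, RD29A and KIN1/KIN2 lie outside the band in each panel, and LTI30 lies inside it in each panel.

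The genes also differed between the experiments. Experiment 2 was higher than experiment 1 for all 6 probe sets (limma adjusted p under 0.05), where 16.6% of tested probe sets were called higher. Both COR15 genes differed most, with fitted log2 differences of 3.75 ± 0.75 for COR15A and 3.74 ± 0.43 for COR15B. COR47 was higher by 1.80 ± 0.23, KIN1/KIN2 by 1.65 ± 0.20, LTI30 by 1.52 ± 0.29 and RD29A by 1.35 ± 0.44. The limma adjusted p ran from 0.00101 for COR15B to 0.0489 for RD29A. The RD29A call held in 3 of 8 alternatives and was lost without further scaling (limma adjusted p = 0.0595) and with quantile normalization (limma adjusted p = 0.0704). The COR15A call held in 6 of 8, the LTI30 call in 7 of 8 and the other 3 in all 8.

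Experiment 3 was higher than experiment 1 for 4 of the 6, against 25.9% of tested probe sets. These were COR15B (3.84 ± 0.43), COR15A (2.19 ± 0.75), KIN1/KIN2 (1.28 ± 0.20) and COR47 (1.01 ± 0.23). RD29A, at 0.26 ± 0.44, and LTI30, at −0.13 ± 0.29, did not pass. The COR15A call (limma adjusted p = 0.0496) held in 4 of 8 alternatives and was lost without further scaling (limma adjusted p = 0.0803). In experiment 3 minus 2, both dehydrins were lower in experiment 3, LTI30 by a fitted log2 difference of −1.65 ± 0.29 (limma adjusted p = 0.0104) and COR47 by −0.80 ± 0.23 (limma adjusted p = 0.0412), where 7.79% of tested probe sets were called lower. COR15A was at −1.56 ± 0.75, RD29A at −1.09 ± 0.44, KIN1/KIN2 at −0.37 ± 0.20 and COR15B at 0.11 ± 0.43, none called. The LTI30 call held in 6 of 8 alternatives and the COR47 call in 5 of 8. For COR15A and RD29A a further call appeared without experiment 1.

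**Figure D5:**
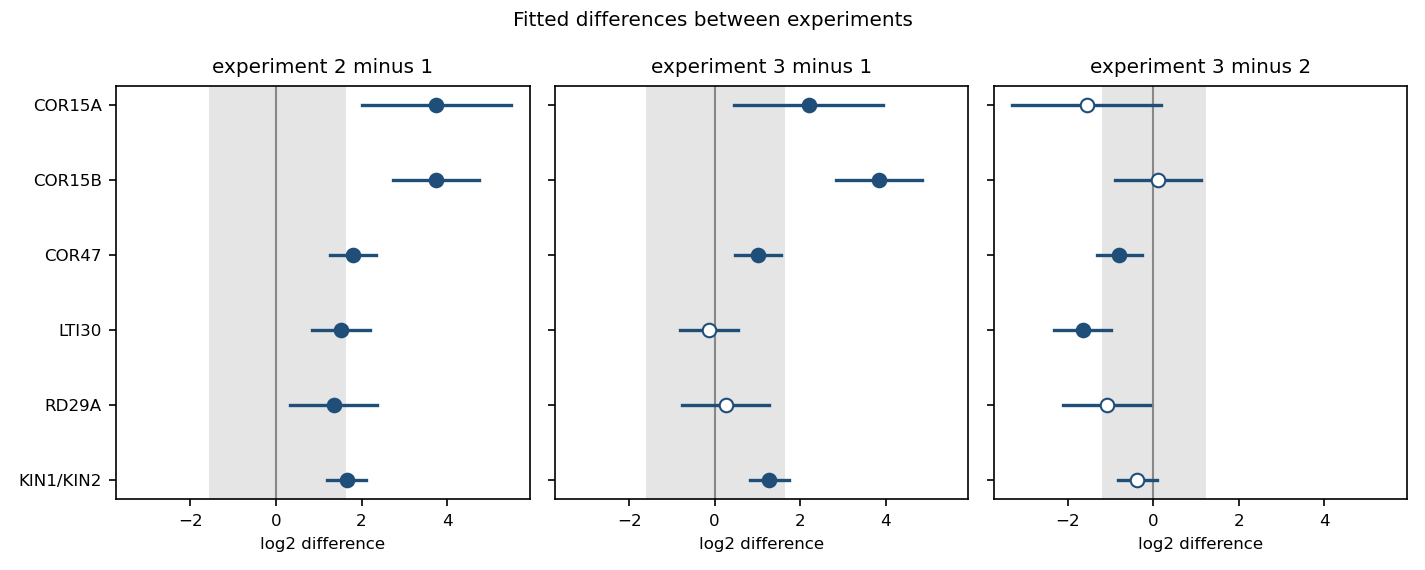
Fitted log2 differences between experiments with limma 95% intervals for the 6 probe sets (filled where the adjusted p was under 0.05), over the central 95% of all tested probe sets in grey. All 6 are filled and above 0 in experiment 2 minus 1, where both COR15 genes lie far above the band and LTI30 and RD29A inside it.

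Within the wild type alone, Col of experiment 1 gave the lowest of the 3 Col signals for 5 of the 6 probe sets, as it did for 36.9% of tested probe sets. Col of experiment 2 gave the highest for 5 of the 6, as it did for 25.8%. The Col arrays spanned 34.5-fold for COR15B and 32.0-fold for COR15A, and from 3.34-fold to 5.60-fold for the other 4. The soc1-101D arrays spanned 8.91-fold for COR15B and 7.65-fold for COR15A, and from 1.47-fold to 3.20-fold for the other 4. Over all 7 arrays the SD of the log2 signal of COR15A, 2.88, ranked 6 among the 13648 tested probe sets.

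Ordered over the 7 arrays, soc1-101D of experiment 1 was lowest for COR15A, COR47, LTI30 and KIN1/KIN2. The lowest array was soc1-101D of experiment 3 for RD29A and Col of experiment 1 for COR15B, where soc1-101D of the same experiment read nearly the same (135 in soc1-101D and 134 in Col). The highest array was soc1-2 for COR15A, COR15B and KIN1/KIN2, and Col of experiment 2 for COR47, LTI30 and RD29A. The mean signals of soc1-101D and Col differed by less than the larger SD of the pair for COR15B (791 ± 574 in soc1-101D and 2723 ± 2322 in Col), COR47 (4184 ± 2112 in soc1-101D and 7059 ± 4849 in Col), LTI30 (1266 ± 676 in soc1-101D and 1946 ± 1664 in Col) and RD29A (283 ± 53.7 in soc1-101D and 2154 ± 1912 in Col, SD, n = 3 each). This comparison ignores the pairing by experiment, so each SD includes the differences between experiments. For RD29A every soc1-101D array still lay below every Col array.

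The 6 probe sets did not move as a single block. Over the 7 arrays, COR15A and KIN1/KIN2 had the closest log2 signals (Pearson r = 0.95, Spearman rho = 0.96), followed by RD29A and KIN1/KIN2 (r = 0.93). COR15A and COR15B correlated at r = 0.90. LTI30 stood apart from COR15B (r = 0.22), KIN1/KIN2 (r = 0.31) and COR15A (r = 0.33), and was closest to its fellow dehydrin COR47 (r = 0.73). These values share experiments and arrays and are given as a description.

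The members also lie beside related genes. In the gene order of the TAIR10.1 annotation, COR15B and COR15A are direct neighbours on chromosome 2, and KIN1 and KIN2 on chromosome 5. COR47 lies next to the dehydrin gene ERD10, LTI30 next to the dehydrin gene XERO1, and RD29A next to LTI65 (RD29B). ERD10, XERO1 and RD29B were not analysed here. Of the 10 genes listed as neighbours, 4 had a named probe set, all 4 were tested and none was called in soc1-101D minus Col. AT2G42520, on the far side of COR15B, had a fitted log2 difference of −0.060 ± 0.15, and AT1G20430, beside COR47, one of −0.14 ± 0.17. The genes flanking the KIN pair, AT5G15950 and AT5G15980, were at −0.15 ± 0.14 and 0.093 ± 0.16. AT5G15950 ran opposite to the KIN genes between experiments, with signals of 3462 in soc1-101D and 3770 in Col of experiment 1, and 182 in soc1-101D and 214 in Col of experiment 2.

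Other genes of the cold response could be followed in part. Of 16 regulators listed, SIZ1 and STZ had named probe sets, and the CBF genes themselves were not analysed here. SIZ1, a SUMO ligase that acts on the CBF activator ICE1, had fitted log2 differences of 0.076 ± 0.27 at the dimmer and −0.0041 ± 0.16 at the brighter of its 2 probe sets in soc1-101D minus Col, and the value at the brighter one changed sign with the scaling. STZ, a zinc finger repressor gene induced by several stresses, read 320, 964 and 311 in soc1-101D, 1043 in soc1-2 and 178, 982 and 205 in Col (fitted log2 difference of soc1-101D minus Col 0.44 ± 0.19, limma adjusted p = 0.449). Its fitted log2 differences were larger in the comparisons with the lone soc1-2 array, at 2.18 ± 0.30 in soc1-2 minus Col and −1.74 ± 0.30 in soc1-101D minus soc1-2. None of these 3 probe sets was called in any of the 3 genotype comparisons.

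Of 24 other cold-induced genes listed, 2 had a named probe set. COR27 read 7.55, 372 and 882 in soc1-101D, 1244 in soc1-2 and 16.0, 525 and 764 in Col. COR28 (AT4G33980) read 19.4, 391 and 450 in soc1-101D, 755 in soc1-2 and 50.7, 551 and 603 in Col. Both genes, which the circadian clock and light also control, were lowest on both arrays of experiment 1, and their signals there lay near or below the 19.3 added before log2 for COR27 and for COR28 in soc1-101D. Their fitted log2 differences in soc1-101D minus Col were −0.22 ± 0.18 and −0.58 ± 0.16 (AT4G33980), not called.

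Among 8 dehydrin genes beside COR47 and LTI30, 4 had a named probe set and 1 was bright enough to be tested. This was HIRD11 (AT1G54410), which read 2970, 10124 and 11634 in soc1-101D, 16582 in soc1-2 and 3630, 17268 and 16511 in Col. It was lower in soc1-101D in each experiment, with a fitted log2 difference of −0.52 ± 0.16 (limma adjusted p = 0.26, AT1G54410). Of 13 genes of abscisic acid and drought, HIS1-3, a linker histone gene induced by drought, could be tested. It read 144, 477 and 111 in soc1-101D, 222 in soc1-2 and 368, 2344 and 126 in Col, with a fitted log2 difference of −1.22 ± 0.34 (limma adjusted p = 0.225). Of the flowering regulators, the floral repressor gene SMZ fell in soc1-101D (−1.52 ± 0.20, limma adjusted p = 0.0279), and GI, at −0.15 ± 0.17, was not called. The SMZ call held in 6 of 11 alternatives, and was lost with quantile normalization (limma adjusted p = 0.0827), without experiment 1 (limma adjusted p = 0.0903), with either weaker filter and without the experiment block (limma adjusted p = 1.00).

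The genes whose log2 signals were most like the mean of the 6 standardized profiles over the 7 arrays were AT1G58230 (r = 0.98), AT1G14960 (r = 0.98), AT5G13500 (r = 0.97), BGLU46 (r = 0.97), AT5G03700 (r = 0.96), AT2G25450 (r = 0.96), AT4G33550 (r = 0.96) and AT2G42390 (r = 0.96). Of 7272 other tested probe sets with a single gene, 40 had r above 0.9. The members themselves had r from 0.58 (LTI30) to 0.94 (COR15A) with this mean. The 8 were picked on these same arrays, where the mean profile was lower in soc1-101D than in Col of each experiment. Their negative differences in soc1-101D minus Col follow largely from that choice and are given as a description. These 8 moved over narrower ranges than the COR15, RD29A and KIN genes, but AT4G33550 spanned more than COR47 (6.63-fold) and LTI30 (4.96-fold). AT4G33550 had the widest fitted difference in soc1-101D minus Col, −1.10 ± 0.20 (limma adjusted p = 0.0816), with signals of 232, 509 and 330.1 in soc1-101D, 879 in soc1-2 and 455, 1665 and 557 in Col. AT1G14960 followed at −0.76 ± 0.21, and the other 6 lay between −0.53 (BGLU46) and −0.18 (AT2G42390). None of the 8 was called.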

How the data were processed

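The authors deposited 1 intensity per probe set on a linear scale for each of 7 one-colour arrays, made with software not given in the sources used here. On every array the 2% trimmed mean lay between 495.5 and 496.2, and medians ranged from 178.75 to 206.8. The number of arrays limits the precision.

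Arrays were brought to a shared median (192.7), 19.3 (0.1 times that median) was added, and log2 taken. Probe sets in the dimmest 40% by their mean over the 7 arrays were left out. Genotype and experiment number were fixed terms in limma 3.58.1 (R 4.3.3, lmFit and eBayes, 2 residual and 5.62 prior degrees of freedom). The soc1-2 array adds nothing to the spread. The experiment term was kept because the labels take Col of that experiment as the baseline. Deviations from group means correlated between the arrays of an experiment at r = 0.85, 0.74 and 0.82 across probe sets.

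Of 22746 probe sets, 13513 had 1 gene, 503 several and 8730 none in the platform annotation. Symbols were updated and gene order taken from a RefSeq table of TAIR10.1. No build is named for the arrays, so positions are not given. The text names the 6 members, their listed neighbours, listed genes of 9 gene lists (called, or up to 5 per list by p) and the 8 most like genes. Members and lists were chosen with earlier results of these data known. The steps were tested on simulated data.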

Additional observations from a re-analysis of the deposited data

Results flagged for a closer look

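The effects of the 2 mutants against Col differed for KIN1/KIN2 by the test of the difference itself, soc1-101D minus soc1-2, at a log2 of −2.99 (limma adjusted p = 0.0171). Its signal was lower than Col in all 3 soc1-101D pairs and higher than Col of experiment 3 on the soc1-2 array. The test gives the lone soc1-2 array the spread of the other arrays.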

How the results depend on the processing

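Counts of calls (limma, adjusted p under 0.05) depended on the settings, and the cause was not tested. For soc1-101D minus Col, 74 probe sets were called, against 19 with quantile normalization, 49 and 175 with a pseudocount of 0.02 and 0.5 times the median, 170 with an intensity trend, and 0 with the 20% dimmest left out (1637 at an unadjusted p under 0.05), with no filter (1714) and without the experiment block (222). Of the 6 members, 2 were lower in the main setting, 1 without further scaling, with quantile normalization and with the 0.02 pseudocount, and 0 under the last 3 settings. RD29A was the member lost and KIN1/KIN2 the one kept where 1 was lower. Leaving out an experiment gave 26 to 129 probe sets and 2 to 4 members. For soc1-2 minus Col the 0 calls became 14 with the 0.5 pseudocount, 6 with the trend and 0 to 26 without an experiment, never with a member. For soc1-101D minus soc1-2 the 7 calls became 3 without further scaling, 1 with quantile normalization, 33 with the 0.5 pseudocount and also 33 with the trend, 13 to 55 without an experiment, and 0 with no filter (1058 unadjusted), with the 20% filter (905) and without the block (147). The 1 member lower there became 3 with the 0.5 pseudocount and with the trend, 3 to 4 without an experiment, and 0 with quantile normalization, with either filter change and without the block. With no filter, experiment 2 minus 1 had 1978 calls and 3 members higher (4452 and 6 in the main setting), experiment 3 minus 1 had 2981 and 2 (5478 and 4), and experiment 3 minus 2 had 0 and 0 (3349 and 2, with 5578 unadjusted). With the 20% filter, experiment 3 minus 2 had 33 calls and 0 members lower, with the 0.02 pseudocount 1 member, and without experiment 1 it had 3536 calls and 4 members.

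All fitted differences of the 6 members in soc1-101D minus Col kept their direction under all 11 alternatives. Signs turned for LTI30 without the experiment block (−0.57 in soc1-2 minus Col, 0.16 in soc1-101D minus soc1-2) and for COR15B in experiment 3 minus 2 (−0.080 without further scaling, −0.12 with quantile normalization). In soc1-101D minus Col the brighter SIZ1 probe set was at 0.023 without further scaling and 0.044 with quantile normalization. With an experiment left out, signs also turned for the brighter (−0.092 to 0.15) and the dimmer SIZ1 probe set (−0.38 to 0.32), AT1G20430 (−0.30 to 0.026), AT5G15980 (−0.059 to 0.18), LHCB4.1 (−0.040 to 0.14), EXPA7 (−0.25 to 0.42) and EXPA18 (−0.30 to 0.19). None of these was called.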
